A study of Mus musculus with 6 samples.

Results

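The V1R receptors from Vmn1r55 to Vmn1r185 are vomeronasal receptor genes of mouse chromosome 7, taken as every row whose GENCODE symbol is Vmn1r followed by a number in that range. There were 91 such genes among 38561 rows. The table held 164 numbered V1R genes in all, of which 34 fell between Vmn1r4 and Vmn1r54 and 39 from Vmn1r186 upwards. The annotation lists 103 symbols in the range, all protein-coding and all on chromosome 7, and the other 12 were not analysed here. All libraries were made from vomeronasal organs of male mice of the outbred CD-1 stock, and no allele or other treatment is labelled. RNA was precipitated with antibodies against ribosomal protein S6 in its phosphorylated form, which rises in recently active neurons, so that messages of active cells are enriched. In 3 libraries the males had been exposed to pups, and in the other 3 to a control that the labels do not describe further; neither the age of the males nor the length of exposure is given. The labels do not say whether libraries were separate animals or pools, so p-values reflect the spread among 6 libraries, and that spread may be technical.

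V1R receptors are G protein-coupled receptors of the apical layer of the vomeronasal epithelium. Each sensory neuron expresses essentially a single receptor, couples it to the G protein subunit Gnai2 and depolarises through the channel Trpc2. Small molecules such as sulfated steroids are known ligands, and close relatives arose by repeated duplication, so that neighbours along the chromosome often have almost the same sequence. For most receptors named here no ligand is stated, and their role is given only as V1R receptors.

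Many of the receptors are near-identical in sequence. A run of 49 of the 91 genes, from Vmn1r91 to Vmn1r166, lies between positions 20099680 and 23251682 of chromosome 7 (GRCm38). The lowest identity of any of the 49 coding sequences to its closest relative was 94.9%, and 48 reached at least 97%. Only 41 different coding sequences were found among the 49, since 14 genes had exactly the coding sequence of another gene and up to 3 genes shared a single one. The first 90 coding bases of 5 of them, from GENCODE M21 transcripts, are printed to show how little tells them apart. This window was picked as the first 90 bases in a row with the most differences between Vmn1r100 and Vmn1r125. Capitals mark bases that differ from Vmn1r100.
Vmn1r100 (chr7:20417942-20418031, + strand): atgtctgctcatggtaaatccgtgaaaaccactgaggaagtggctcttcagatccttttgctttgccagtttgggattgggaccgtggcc
Vmn1r148 (chr7:22413583-22413672, + strand): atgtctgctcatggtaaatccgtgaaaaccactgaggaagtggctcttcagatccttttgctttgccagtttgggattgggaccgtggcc
Vmn1r104 (chr7:20533837-20533926, + strand): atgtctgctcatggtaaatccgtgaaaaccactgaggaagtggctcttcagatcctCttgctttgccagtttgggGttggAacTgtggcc
Vmn1r130 (chr7:21511780-21511869, + strand): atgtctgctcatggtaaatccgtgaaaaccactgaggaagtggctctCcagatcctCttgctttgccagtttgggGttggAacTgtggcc
Vmn1r125 (chr7:21272179-21272268, + strand): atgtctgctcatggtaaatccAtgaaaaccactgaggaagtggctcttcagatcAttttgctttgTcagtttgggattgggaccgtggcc
Over the whole coding sequence of 921 bases, Vmn1r148 did not differ from Vmn1r100 at any position, Vmn1r125 differed at 11, Vmn1r130 at 18 and Vmn1r104 at 21. Vmn1r137 and Vmn1r165 had the coding sequence of Vmn1r130, with 0 differences.

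The second set shows Vmn1r169, the receptor with the smallest p-value of the comparison, beside relatives of its own cluster, the next one along the chromosome. The window covers coding bases 659 to 778, and capitals mark bases that differ from Vmn1r169. It was picked as the 120 bases with the most differences between Vmn1r169 and Vmn1r176.
Vmn1r169 (chr7:23577843-23577962, + strand): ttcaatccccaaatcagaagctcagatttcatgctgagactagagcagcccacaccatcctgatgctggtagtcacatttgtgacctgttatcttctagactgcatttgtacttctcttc
Vmn1r176 (chr7:23834949-23835068, - strand): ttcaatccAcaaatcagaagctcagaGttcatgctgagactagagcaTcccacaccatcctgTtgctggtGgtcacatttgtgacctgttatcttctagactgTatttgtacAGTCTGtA
Vmn1r170 (chr7:23606833-23606952, + strand): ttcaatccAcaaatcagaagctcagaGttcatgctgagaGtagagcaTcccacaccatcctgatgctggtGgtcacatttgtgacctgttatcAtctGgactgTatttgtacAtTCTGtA
Vmn1r175 (chr7:23808423-23808542, - strand): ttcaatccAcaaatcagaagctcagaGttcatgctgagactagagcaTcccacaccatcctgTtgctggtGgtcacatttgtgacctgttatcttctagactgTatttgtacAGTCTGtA
Within the window Vmn1r176 and Vmn1r175 each differed from Vmn1r169 at 13 positions and Vmn1r170 at 14. Vmn1r176 and Vmn1r175 were identical to each other there. Over the coding sequence of 912 bases, Vmn1r176 differed at 31 positions, with a longest identical run of 242 bases, whereas Vmn1r175 differed at 52 and Vmn1r170 at 56. Vmn1r170 and Vmn1r175 were closer to each other, with 17 differing positions.

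Counts were set beside this sharing. Each annotated transcript was divided into words of 50 bases, and a word was called shared if another gene's transcripts also held it on either strand. Of the 23 receptors with every word shared, 1 had a count, and it was a single read. Of the 27 with 50% to under 100% shared, 12 had a count, and their summed count over the 6 libraries was 606. All 34 receptors with under 20% shared had a count and together held 35760, and the 7 in between held 9309. Of the 38 receptors with 0 counts in every library, 37 shared at least 50% of their words, and Vmn1r62, with 32.0% shared, was the exception. The other 73 V1R genes of the table held no receptor with every word shared, and 63 of them were under 20%.

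**Figure D1:**
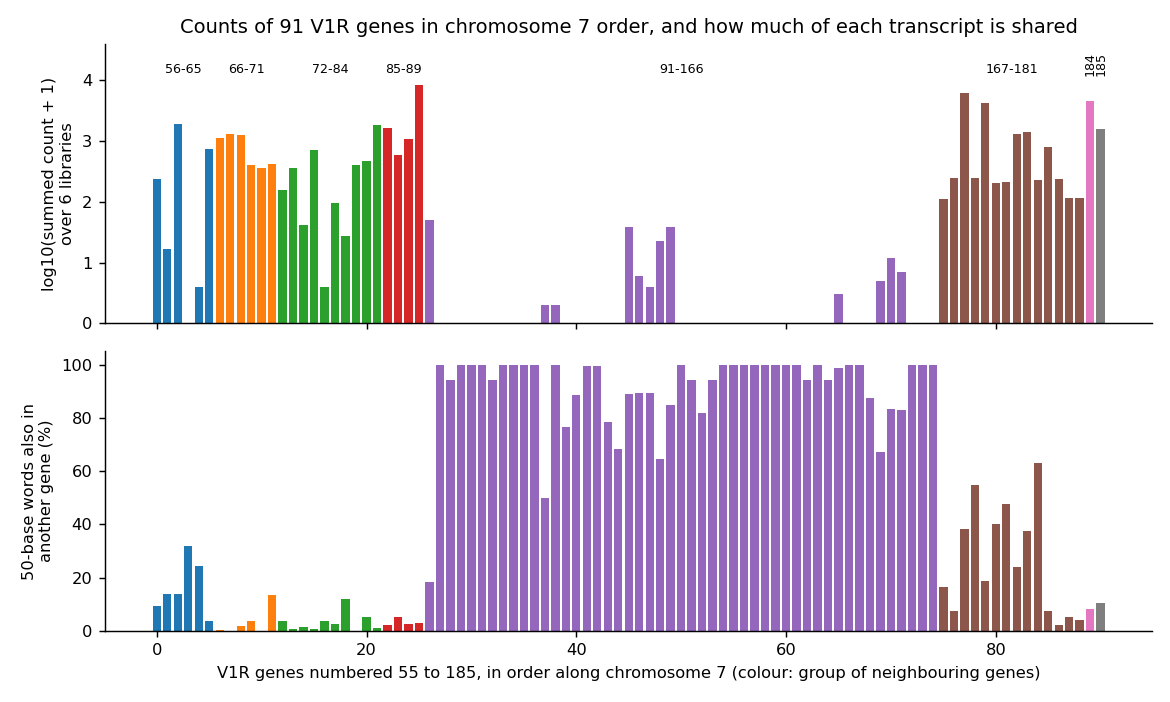
Bars show, for the 91 V1R genes in their order along chromosome 7, the count summed over 6 libraries as log10(count + 1) (top) and the percentage of 50-base transcript words also found in another gene (bottom). Colours mark groups of neighbouring genes, with their first and last Vmn1r number above; from Vmn1r91 to Vmn1r166, 37 of 49 genes had no count and most bars of the lower panel stand near 100.

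The run from Vmn1r91 to Vmn1r166 was thus almost empty. A count was recorded for 12 of its 49 genes, the highest total was 50 over all libraries, for Vmn1r91, and the run held 0.394% of the counts of the 91 receptors. None of its genes passed the filter on low counts. Annotation differed as well: 48 of the 49 gene models in the run hold the coding sequence only, with no annotated UTR that could set near-copies apart. A count of 0 allows up to 3 counts in a library, which is 0.144 to 0.283 CPM here (CPM are counts scaled to the library's total). Whether reads that map to several genes were discarded is not given in the sources used here, so that absent expression and discarded reads cannot be told apart for these genes.

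Outside the run, 41 of the 42 receptors had a count. Counts were held by few genes, with 42.0% in the 3 most counted receptors and 72.6% in the 10 most counted. Levels between genes were compared as CPM, from here on scaled by TMM factors, per kilobase of annotated transcript, averaged over the 6 libraries. Vmn1r89, a receptor known in mice for responses to sulfated estrogens, was the highest at 19.3 CPM per kilobase. Vmn1r169 followed at 16.8 and Vmn1r171 at 13.5. After them came Vmn1r67 at 5.90, Vmn1r184 at 4.85, Vmn1r175 at 4.28, Vmn1r176 at 4.11, Vmn1r84 at 3.69 and Vmn1r66 at 3.06 CPM per kilobase. Vmn1r177 was next at 2.55, on a model without UTRs. Spread between libraries was wide: Vmn1r89 ran from 45.3 to 160 CPM and Vmn1r169 from 9.84 to 135 CPM. Over all 6 libraries the order of the leading receptors therefore does not exceed their spread. These averages take in both exposures. In the control libraries alone the leading 3 did not overlap. Vmn1r89 had 75.6 to 84.1 CPM, Vmn1r171 had 35.1 to 42.6 CPM and Vmn1r169 had 9.84 to 20.4 CPM there.

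The comparison of exposures asks which receptors' neurons were more or less represented in the precipitate after males met pups. No receptor of the range rose or fell at an adjusted p under 0.05 in edgeR's quasi-likelihood test with Benjamini-Hochberg adjustment over all 15498 genes tested, where 0% of genes were called in either direction. In a precipitate from whole tissue, changes in cell number, in RNA per cell and in S6 phosphorylation cannot be told apart. The receptors tested numbered 35, while 18 had a count but did not pass the filter and 38 had none. At an unadjusted p under 0.05, 4 of the 35 (11.4%) were higher after pup exposure, namely Vmn1r169, Vmn1r178, Vmn1r184 and Vmn1r70, beside 6.31% of all genes tested. Only Vmn1r87 (2.86%) was lower, beside 4.67%. In DESeq2, 1 receptor, Vmn1r169, was higher at an adjusted p under 0.05, where 0.406% of the 12301 genes given an adjusted p were called higher. Some receptors, Vmn1r70 among them, were given no adjusted p in DESeq2. No receptor was lower in DESeq2, where 0.626% of those 12301 genes were called lower. In edgeR without a filter on low counts, Vmn1r169 was again the receptor called higher, where 0.255% of genes were, and none was lower, where 0.247% were. In limma-voom none was called, beside 0.00645% of genes higher and 0.0452% lower.

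The smallest p belonged to Vmn1r169, a V1R receptor gene at chromosome 7, 23575526 to 23578849, + strand. Its level was 20.4, 16.9 and 9.84 CPM in the control exposure libraries and 27.4, 135 and 67.2 CPM in the pup exposure libraries. The groups did not overlap: pup exposure replicate 2 was far above all others, and replicate 1 came close to the highest control. The log2 fold change was 2.27 (SE 0.55), with an unadjusted p of 0.00137 and an adjusted p of 0.375 in edgeR. DESeq2 gave 2.23 with an adjusted p of 0.0126, and the unfiltered edgeR fit gave 2.31 with an adjusted p of 0.000201. Leaving out pup exposure replicate 2 lowered the log2 fold change to 1.58, with an adjusted p of 0.831 in edgeR.

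Because 38.2% of the words of Vmn1r169 also occur in other genes, it was set beside Vmn1r176, its closest relative at 96.8% identity, in which 37.3% are shared. Vmn1r176 had 10.2, 12.6 and 7.19 CPM in the control libraries against 4.50, 26.8 and 11.6 CPM after pup exposure. Its groups overlapped, and its log2 fold change was 0.51 (SE 0.59, unadjusted p = 0.401 in edgeR). Within a library, the count of Vmn1r169 was 2.00, 1.34 and 1.37 times that of Vmn1r176 after control exposure. After pup exposure the same ratio was 6.08, 5.02 and 5.81. The ratios did not overlap, although the pup exposure libraries differed widely in the level of either gene, and this held for replicate 1, the lowest of the pup exposure libraries for either gene. The log2 ratio was higher by 1.86 after pup exposure (two-sided exact permutation p = 0.1, the lowest value possible with 3 against 3 libraries), and by 1.76 to 2.05 when any library was left out. With the counts of Vmn1r169 and Vmn1r176 summed into a single feature before the fit, and other near-copies likewise, the log2 fold change was 1.81 with an unadjusted p of 0.00563 in edgeR. How reads common to both genes were assigned is not given, and its part in the ratio was not tested.

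**Figure D2:**
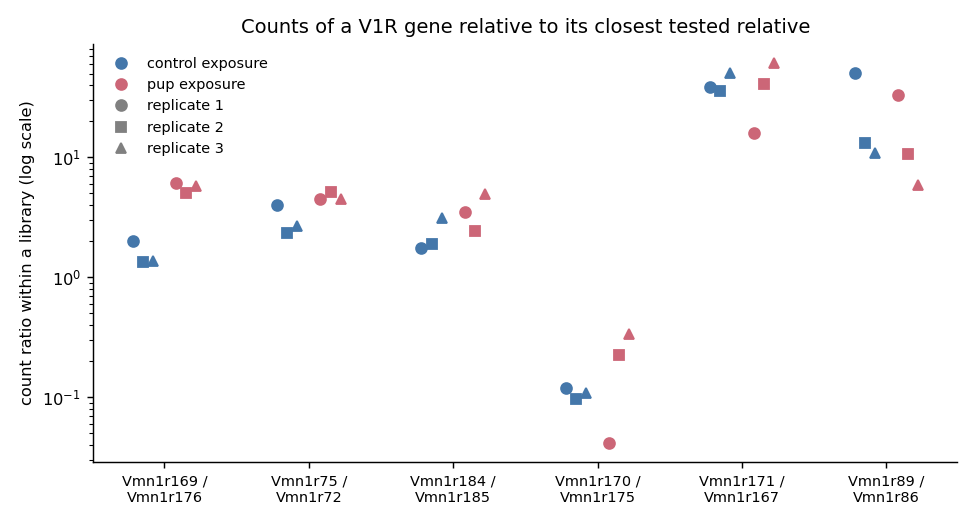
Points give, for each library, the count of a V1R gene divided by the count of its closest tested relative (log axis; blue control exposure, red pup exposure, symbols the replicate numbers). Vmn1r169 over Vmn1r176 stood at 1.34 to 2.00 in the control libraries against 5.02 to 6.08 in the pup libraries. Vmn1r75 over Vmn1r72 did not overlap either, at 2.33 to 4.0 against 4.45 to 5.13. The groups overlapped for Vmn1r184 over Vmn1r185, Vmn1r170 over Vmn1r175, Vmn1r171 over Vmn1r167 and Vmn1r89 over Vmn1r86.

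The same ratio could be formed for 15 distinct pairs of a named receptor and its closest tested relative with a count in every library. Groups overlapped in 13 of the pairs, and with p-values adjusted over the 15 the smallest was 0.6 (exact permutation tests, Benjamini-Hochberg). Besides Vmn1r169 over Vmn1r176, Vmn1r75 over Vmn1r72 did not overlap, at 4.0, 2.33 and 2.67 in the control libraries against 4.53, 5.13 and 4.45 in the pup libraries. These ratios were chosen after the values of Vmn1r169 had been seen. Vmn1r172 and Vmn1r174, which differ at 16 of 939 coding positions, had ratios from 0.579 to 2.00 in the control libraries against 1.06 to 3.63 in the pup libraries.

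Vmn1r178, a V1R receptor gene at chromosome 7, 23892009 to 23895622, had 1.96, 3.77 and 0.781 CPM in the control libraries against 6.70, 15.4 and 9.05 CPM in the pup libraries. The pup exposure libraries all lay above the controls. Its log2 fold change was 2.23 (SE 0.65), unadjusted p = 0.00512 and adjusted p = 0.395 in edgeR. Sequence sharing was low for this gene, at 7.31% of words. Vmn1r184, at chromosome 7, 26260334 to 26270619, was more abundant per kilobase (4.85 against 2.18 CPM per kilobase), with 22.2, 27.4 and 32.7 CPM after control exposure against 43.6, 65.7 and 54.9 CPM. Its groups were separated, and the spread within each was narrow. The log2 fold change was 1.0 (SE 0.36), unadjusted p = 0.0159 and adjusted p = 0.424 in edgeR. Without control exposure replicate 1 or 2 the unadjusted p was 0.0601 or 0.0517 in edgeR. Its relative Vmn1r185, a receptor reported to respond to cues of female mice, had 12.7, 14.5 and 10.5 CPM against 12.5, 26.9 and 11.2 CPM. Those groups overlapped (log2 fold change 0.42, SE 0.45, unadjusted p = 0.371 in edgeR), and the ratio of Vmn1r184 to Vmn1r185 overlapped too (exact permutation p = 0.2).

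Vmn1r70 was high in only 2 of the pup exposure libraries. It had 1.57, 1.26 and 0.781 CPM in the control libraries against 1.18, 7.15 and 5.04 CPM in the pup libraries, so that the groups overlapped. In edgeR the log2 fold change was 1.87 (SE 0.84), unadjusted p = 0.0459 and adjusted p = 0.450. The unadjusted p was above 0.05 under RLE scaling (0.0512), upper quartile scaling (0.0502), limma-voom (0.205) and the replicate block (0.135), and it stayed under 0.05 in only 1 of the 6 edgeR fits with a library left out, that without pup exposure replicate 1. Vmn1r75 was separated, with 2.82, 3.14 and 3.75 CPM against 4.13, 15.8 and 4.85 CPM, and a log2 fold change of 1.36 (SE 0.64, unadjusted p = 0.0554 in edgeR). Without pup exposure replicate 2 it was 0.49 with an unadjusted p of 0.508 in edgeR. Vmn1r66 had 5.64, 13.3 and 4.53 CPM against 11.5, 13.3 and 13.3 CPM, with overlapping groups.

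Among receptors lower after pup exposure, Vmn1r87 had the smallest p. This V1R receptor gene, at chromosome 7, 13130904 to 13140157, had 19.5, 17.1 and 14.1 CPM in the control libraries against 8.42, 8.50 and 8.45 CPM in the pup libraries. The groups were separated and the pup exposure libraries nearly equal. Its log2 fold change was -1.0 (SE 0.40), unadjusted p = 0.0278 and adjusted p = 0.432 in edgeR. With library totals as the only scaling it was -0.77 with an unadjusted p of 0.189 in edgeR, and the median of all genes under that scaling was 0.31. Its unadjusted p was 0.0612 without a filter, and it stayed under 0.05 in 2 of the 6 edgeR fits with a library left out, those without control exposure replicate 3 or pup exposure replicate 1. Vmn1r85, a neighbour known for responses to sulfated estrogens in mice, had 17.6, 27.0 and 21.1 CPM against 11.1, 17.0 and 14.2 CPM. Its groups were separated by a small margin, and the log2 fold change was -0.64 (SE 0.39, unadjusted p = 0.133 in edgeR).

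Vmn1r89, in the same cluster as Vmn1r85 and with ligands of the same kind, showed no common direction. It had 75.6, 84.1 and 77.5 CPM after control exposure, a narrow range, and 160, 74.6 and 45.3 CPM after pup exposure. The pup exposure libraries lay on both sides of the controls, and the log2 fold change was 0.24 (SE 0.45, unadjusted p = 0.607 in edgeR). Vmn1r171 overlapped in the same way, with 42.6, 35.1 and 39.5 CPM against 17.9, 58.4 and 54.5 CPM. Pup exposure replicate 1 was thus the highest library for Vmn1r89 and the lowest for Vmn1r171.

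**Figure D3:**
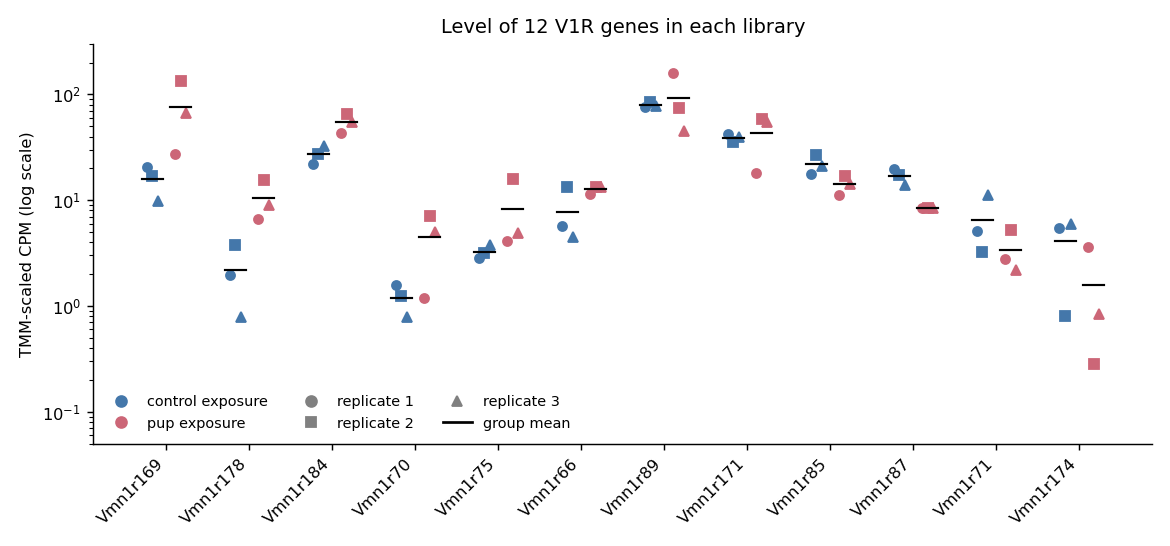
TMM-scaled CPM (log axis) of 12 V1R genes in each library, with control exposure in blue, pup exposure in red, a symbol for each replicate number and a black line at the group mean (n = 3). The groups stood apart for Vmn1r169, Vmn1r178, Vmn1r184 and Vmn1r75 (higher after pup exposure) and for Vmn1r85 and Vmn1r87 (lower), and overlapped for the other genes shown.

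The first 60 coding bases of the remaining receptors with an unadjusted p under 0.05 are given for identification, with the start codon in capitals.
Vmn1r178 (chr7:23893529-23893588, + strand): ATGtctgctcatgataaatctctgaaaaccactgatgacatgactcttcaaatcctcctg
Vmn1r184 (chr7:26266831-26266890, + strand): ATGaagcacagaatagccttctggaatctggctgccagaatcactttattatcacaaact
Vmn1r87 (chr7:13132299-13132358, - strand): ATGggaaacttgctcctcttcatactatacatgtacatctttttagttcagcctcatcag
Vmn1r70 (chr7:10633587-10633646, + strand): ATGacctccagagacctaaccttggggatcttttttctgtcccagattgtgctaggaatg
Of these, Vmn1r70 shared no word of 50 bases with another gene, and Vmn1r87 shared 2.66% of its words.

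Negative log2 fold changes with wide errors were found for Vmn1r174 (-1.37, SE 1.03), Vmn1r56 (-1.11, SE 0.93) and Vmn1r71 (-0.93, SE 0.66). All had unadjusted p-values in edgeR of 0.187 to 0.256 and overlapping groups. Vmn1r172, Vmn1r168, Vmn1r177, Vmn1r65, Vmn1r84, Vmn1r175 and Vmn1r67 lay between -0.55 and -0.09. On the positive side, Vmn1r170 had 0.90 (SE 1.06), Vmn1r179 had 0.87 (SE 0.83) and Vmn1r176 had the value given above, all with overlapping groups. The number of receptors whose pup exposure libraries all lay above the controls was 4 of 35 (11.4%), beside 10.1% of all genes tested, and 2 of 35 (5.71%) had them all below, beside 9.60%. These shares are near the background of all genes. Log2 fold changes were positive for 21 and negative for 14 of the 35 receptors, while 51.5% of all genes tested were positive.

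**Figure D4:**
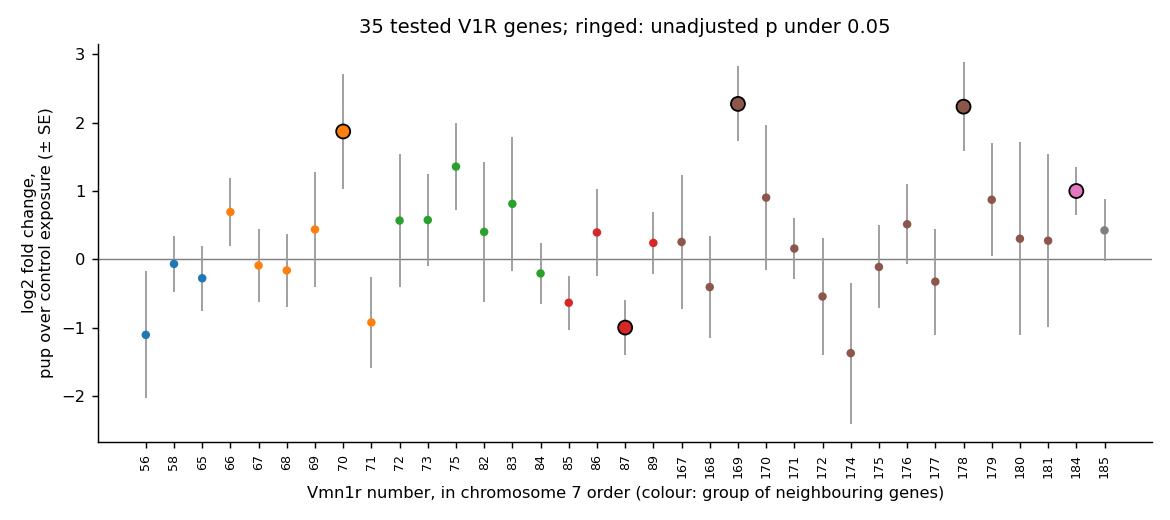
Log2 fold change of pup over control exposure (points) with its standard error (lines) for the 35 tested V1R genes in chromosome 7 order, coloured by group of neighbouring genes. Large ringed points had an unadjusted p under 0.05 in edgeR: Vmn1r169, Vmn1r178, Vmn1r184 and Vmn1r70 above 0 and Vmn1r87 below it.

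The median log2 fold change over the 35 receptors was 0.27, beside 0.03 over all genes tested. It was 0.10 over the 28 tested receptors up to Vmn1r54. At an unadjusted p under 0.05 in edgeR, 2 of these (7.14%) were higher and 1 (3.57%) lower. Over the 31 tested receptors from Vmn1r186 upwards the median was 0.24, with 4 higher (12.9%) and 1 lower (3.23%). The shares over all genes tested were 6.31% higher and 4.67% lower. The difference between these groups of receptors was not tested.

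Summed over all 91 genes, the receptors held 0.0416%, 0.0423% and 0.0222% of all counts in the control libraries and 0.0448%, 0.0869% and 0.0397% in the pup libraries. Control exposure replicate 3 was the lowest and pup exposure replicate 2 the highest, and the groups overlapped. The means were 0.0353% ± 0.0114 and 0.0571% ± 0.0259 (SD, n = 3, exact permutation test, two-sided, p = 0.3). With the 50 most abundant genes left out of the total, the groups did not overlap. The receptors then held 0.0835%, 0.0942% and 0.0768% in the control libraries and 0.102%, 0.152% and 0.0973% in the pup libraries, a ratio of means of 1.38 (exact permutation p = 0.1, the lowest possible). As a share of all V1R counts, the receptors held 57.2%, 47.9% and 47.2% in the control libraries against 55.56%, 53.97% and 44.04% in the pup libraries. These means were 50.8% ± 5.58 and 51.2% ± 6.24 (SD, n = 3, exact permutation test, two-sided, p = 1.0).

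Make-up within the receptors' own counts was followed by chromosome neighbourhood, with groups split wherever neighbours lay over 250 kb apart. This split was chosen after the data had been seen. The gap between the end of Vmn1r166 (23251682) and the start of Vmn1r167 (23503646) was only just over that limit. The group from Vmn1r167 to Vmn1r181, which holds Vmn1r169 and Vmn1r178, took 30.5%, 25.1% and 22.2% of the receptors' counts after control exposure. After pup exposure it took 17.9%, 44.5% and 39.6%, so it was lowest in replicate 1 and above every control in the others (exact permutation p = 0.4). All 14 of its receptors were tested, with 9 positive and 5 negative log2 fold changes from -1.37 to 2.27. The group from Vmn1r85 to Vmn1r89 mirrored it, at 31.2%, 33.4% and 32.6% against 42.2%, 17.1% and 18.5% (exact permutation p = 0.4). Shares of 1 total are bound to each other, so a gain in some genes lowers the rest.

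**Figure D5:**
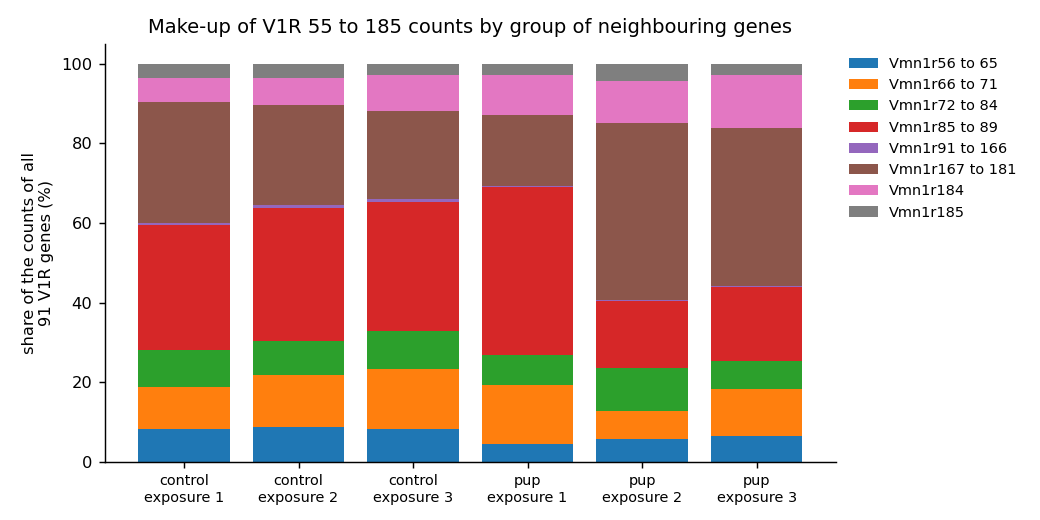
Stacked bars show, for each library, the percentage of the counts of the 91 V1R genes that fell in each group of neighbouring genes on chromosome 7. The Vmn1r85 to Vmn1r89 group was largest in pup exposure replicate 1, at 42.2%, and the Vmn1r167 to Vmn1r181 group in pup exposure replicates 2 and 3, at 44.5% and 39.6%.

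A narrower spread was seen for the group from Vmn1r56 to Vmn1r65. It held 8.22%, 8.85% and 8.21% of the receptors' counts in the control libraries against 4.51%, 5.79% and 6.45% in the pup libraries, without overlap (exact permutation p = 0.1, the smallest possible). The log2 fold changes of its 3 tested genes, Vmn1r56, Vmn1r58 and Vmn1r65, were -1.11, -0.07 and -0.28, with standard errors of 0.93, 0.40 and 0.48. The run from Vmn1r91 to Vmn1r166, with 180 counts in all, did not overlap either. It held 0.600%, 0.602% and 0.723% in the control libraries against 0.306%, 0.26% and 0.447% in the pup libraries (exact permutation p = 0.1). Apart from Vmn1r184, a group by itself, the other groups overlapped. These p-values were not adjusted over the groups. Vmn1r169 alone held 5.57%, 4.21% and 2.68% of the receptors' counts in the control libraries and 6.26%, 21.4% and 16.4% in the pup libraries. Vmn1r184 stood at 6.06%, 6.82% and 8.89% against 9.96%, 10.5% and 13.4%, and Vmn1r87 at 5.33%, 4.26% and 3.83% against 1.92%, 1.35% and 2.06%. These 3 receptors and Vmn1r178 had shares that did not overlap between groups (exact permutation p = 0.1 for each), and all 4 had been picked for their small p-values. The shares of Vmn1r70 (0.428%, 0.312% and 0.213% against 0.270%, 1.14% and 1.23%, exact permutation p = 0.3), Vmn1r89 (exact permutation p = 1.0) and Vmn1r171 (exact permutation p = 0.8) overlapped.

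The libraries also differed in ways that move with exposure. Depth did not overlap, with 10590716 to 11240065 total counts in the controls and 18199476 to 20871266 with pups. The 7 markers of apical vomeronasal neurons, the cells that carry V1R receptors, summed to 543 to 732 CPM in the controls and 760 to 937 CPM with pups. Of the 7, 5 had positive log2 fold changes and none was at 0. At an unadjusted p under 0.05 in edgeR, 2 were higher and 1 lower, beside 6.31% and 4.67% of all genes tested, and none passed adjustment. The 7 markers of basal vomeronasal neurons, which carry V2R receptors, overlapped at 399 to 590 against 401 to 552 CPM. Markers of sustentacular cells, the supporting cells of the epithelium, summed to 3887 to 4490 against 1586 to 2324 CPM, and those of red blood cells to 205 to 591 against 52.6 to 168 CPM. Of 7 sustentacular markers 5 of the 6 tested were negative, as were all 4 tested of 5 red cell markers. Summed markers of macrophages (98.9 to 112 against 51.4 to 83.2 CPM) and of progenitors and immature neurons (476 to 539 against 342 to 434 CPM) did not overlap either. Gland markers had the largest sum and overlapped, at 246374 to 857151 against 140348 to 429270 CPM, with 3 positive and 7 negative. Their sum was highest in control exposure replicate 3 and lowest in pup exposure replicate 2. The same libraries held the lowest and the highest summed share of the receptors, in that order. Markers of mature neurons overlapped at 1307 to 1666 against 1333 to 1444 CPM, with 2 positive and 4 negative. The part of depth and of these cell types in the receptor values was not tested. The share of V1R counts and the Vmn1r169 to Vmn1r176 ratio, each taken within a library, do not depend on library scaling.

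Among 23 vomeronasal transduction genes listed with the receptors, 21 were tested, with 12 positive and 9 negative log2 fold changes. At an unadjusted p under 0.05, 4 were higher and 1 was lower in edgeR, and none passed adjustment. Over all genes tested, 6.31% were higher and 4.67% lower. The lower gene, Kcnn3, had the smallest p of the list. It had 26.0, 65.9 and 15.6 CPM in the control libraries against 0.697, 2.23 and 7.52 CPM in the pup libraries. Its log2 fold change was -3.37 (SE 0.80), unadjusted p = 0.0012 and adjusted p = 0.375 in edgeR. Trpc2 was not matched to a row. Gnai2, the G protein subunit of V1R neurons, was counted with the apical markers and not in this list. It had 145, 147 and 204 CPM in the control libraries against 432, 201 and 167 CPM in the pup libraries. Its groups overlapped, and pup exposure replicate 1 was the highest. Rtp1, a chaperone that helps olfactory receptors reach the cell surface, had 160, 155 and 105 CPM against 116, 389 and 276 CPM, also with overlapping groups. Ano2, a calcium-activated chloride channel, had 17.8, 20.9 and 18.3 CPM against 31.9, 48.7 and 38.8 CPM. Those groups were separated, with a log2 fold change of 1.07 (SE 0.36), unadjusted p = 0.0111 and adjusted p = 0.421 in edgeR.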

How the data were processed

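Values are the authors' deposited read counts, whole numbers for each Ensembl gene ID in each library, with no normalization. Per the labels' protocols, lysates were precipitated with an antibody to phosphorylated S6, and cDNA came from a low-input template-switching kit. Per the submitters' processing notes, reads were placed on GRCm38. Neither an aligner nor a counting tool or annotation release is given in the sources used here. Of 38561 IDs, 36639 matched a GENCODE M21 symbol.

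The whole table was fitted with edgeR 4.0.16 in R 4.3.3 (quasi-likelihood test, TMM, filterByExpr with minimum count 10 and minimum total 15, Benjamini-Hochberg adjustment over all genes tested). Standard errors come from the F statistic. DESeq2 1.42.0 and limma 3.58.1 (voom) were alternatives. The fitting code was tested on simulated data. Coding sequences were aligned with edlib 1.3.9.post1. Shares and ratios had exact permutation tests, two-sided. Intervals were not computed, and the limit of 3 counts for a 0 covers counting error only.

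Within a group, every pair of libraries differed by more than counting noise (at least 94.0 chi-square units per degree of freedom), so all 6 were kept as separate replicates. Named receptors were those with the 10 smallest p-values in each direction, the 10 highest levels per kilobase, and Vmn1r85, Vmn1r89 and Vmn1r185. Vmn1r58, Vmn1r62 and Vmn1r91, the printed near-copies, and relatives used in ratios were named after their values were seen. The members and lists were chosen with earlier results of these data known.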

Additional observations from a re-analysis of the deposited data

How the results depend on the processing

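No receptor passed an adjusted p of 0.05 in edgeR under RLE, upper quartile or library-total scaling, a stricter filter, summed near-copies, the replicate block, or any left-out library; without a filter and in DESeq2, 1 did (Vmn1r169), the latter with 2 lower at an unadjusted p. With library totals only, 0 receptors were lower at an unadjusted p and 0 lay wholly below. The median became 0.76, with 0.31 over all genes, and Vmn1r65 (0.024), Vmn1r67 (0.087), Vmn1r84 (0.11) and Vmn1r175 (0.17) turned positive. Without a filter and in DESeq2, where 53 receptors were counted, 4 lay wholly below, and the share over all genes there is not given. Nor are the shares over all genes given for the unadjusted count in DESeq2 or for the library-total counts. Vmn1r171 turned to -0.018 in limma-voom, and Vmn1r175 to 0.12 with near-copies summed. Without members sharing at least 20% of words, the share of V1R counts had a group ratio of 0.966, against 1.01. The summed share's ratio was 1.62, and 1.42 without Vmn1r169, a setting chosen after seeing the data. The cause of these changes was not tested.

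With a library left out, the median was -0.075 to 0.47, and at an unadjusted p 2 to 5 receptors were higher and 0 to 2 lower. Between 4 and 8 lay wholly above and 2 to 5 wholly below. The shares over all genes in these fits are not given, so these counts have no background to be read against. The number tested changed too, to 41 receptors without control exposure replicate 1 or 2. Groups also separate more easily when 1 of them has fewer libraries. The summed share's ratio was 1.2 to 1.86 and that of the share of V1R counts 0.965 to 1.08. Direction changed for Vmn1r67 (-0.94 to 0.23), Vmn1r84 (-0.56 to 0.10), Vmn1r89 (-0.40 to 0.57), Vmn1r170 (-0.048 to 1.44), Vmn1r171 (-0.11 to 0.53), Vmn1r175 (-1.01 to 0.24), Vmn1r176 (-0.31 to 0.94) and Vmn1r185 (-0.073 to 0.65).

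Deviations of same-numbered libraries from their group means had correlations of -0.04, 0.18 and 0.07. Those of differently numbered libraries ran from -0.26 to 0.14. With 3 libraries per group these values cannot decide whether the numbers pair libraries, and the labels name nothing that ties them. With the replicate block, an unadjusted p called 3 of 35 receptors higher and 1 lower, and Vmn1r171 was -0.0001. The share over all genes under the block is not given here. Depth limits receptors with few counts: 18 with a count were not tested.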
